A study of Mus musculus with 4 samples.

Results

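The genes of the cytosolic ribosomal proteins were examined in macrophages isolated from NB9464 tumors (TAMs, tumor-associated macrophages). Members were the genes whose identifier maps, in GENCODE M21, to a protein-coding symbol of the form Rps or Rpl with a number, or to Rplp0, Rplp1, Rplp2 or Rpsa, without the Rps6k kinases and the pseudogene symbols. The rule found 83 of 54532 genes, 32 of the small (40S) and 51 of the large (60S) ribosomal subunit. They lay on 19 chromosomes. Rps4l and 5 further symbols of this form are pseudogenes in the annotation and were left out.

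NB9464 is a mouse neuroblastoma line with amplified MYCN. Mice of the C57BL/6 background, 4 to 6 weeks old, were injected with NB9464 cells under the skin, got no treatment, and had their tumors taken on day 40. SYK WT mice have functional Syk in myeloid cells; whether they carry Cre or the floxed allele is not given in the sources used here. SYK KO mice carry floxed Syk with a Cre recombinase driven by the lysozyme M promoter, which acts in myeloid cells other than macrophages too and leaves Syk in other cells. CD11b and F4/80 beads served to pull TAMs from the tumors, and their polyA RNA gave 4 libraries, M7 and M8 of SYK WT and M9 and M10 of SYK KO. Whether a library came from 1 mouse or from pooled mice is not given in the sources used here, so p-values measure the spread between these libraries. The labels also name bone marrow-derived macrophages and an adoptive transfer, and the libraries were grouped by the genotype label alone.

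Ribosomal proteins assemble with ribosomal RNA into the particles that make all cellular protein, and cells hold them in near-equal amounts because nearly every ribosomal protein is present once in each ribosome. Their mRNAs are short, abundant and present in every cell type. Most begin with a C followed by a run of pyrimidines, the 5 prime terminal oligopyrimidine (TOP) tract, through which mTORC1 and the RNA-binding protein Larp1 control their translation and stability. The mouse genome also holds many retrotransposed copies of these mRNAs, so that reads from a ribosomal protein mRNA can be counted to more than a single gene.

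The TOP tract was looked for in the RefSeq promoter windows (GRCm38.p6, 250 bases before to 50 after each start site). In all, 63 of the 83 members were matched, with 75 start sites. A C at the start site with at least 5 pyrimidines in a row was present at 17.3% of these starts and at 2.51% of all 32851 starts in the table, and it marked 13 members. These 6 windows are printed because they show the tract in members that the results turn on or that have the longest runs; each covers 15 bases before and 15 from the start site, 5′ to 3′ on the gene's strand, and capitals mark the pyrimidine run from the start site.
Rpl15 (chr14:18270972-18271001, minus strand): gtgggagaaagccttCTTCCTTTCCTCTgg
Rpl35 (chr2:39005117-39005146, minus strand): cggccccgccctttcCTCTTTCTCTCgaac
Rps6 (chr4:86857353-86857382, minus strand): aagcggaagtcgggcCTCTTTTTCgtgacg
Rpl35a (chr16:33056467-33056496, plus strand): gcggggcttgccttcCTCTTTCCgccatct
Rps27 (chr3:90213634-90213663, minus strand): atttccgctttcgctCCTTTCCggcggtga
Rplp2 (chr7:141447636-141447665, plus strand): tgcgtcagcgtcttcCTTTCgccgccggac

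Other short motifs were looked for in the same windows on both strands, and starts with any match were counted. CCGGAAG, the core of ETS factor sites, was found at 36% of the member starts and 8.86% of all starts, and AAGATGGC, the YY1 core, at 10.7% and 2.75%. The GC box GGGCGG was found at 60% and 35.7%, and the TATA box TATAAA at 9.33% and 13.6%. These matches are descriptions of the windows. Over the 13 members with the C start and pyrimidine run the log2 fold change had a median of 0.829 (-0.901 to 1.66). Over the 47 other matched members tested the median was 1.05 (-0.875 to 1.94), with no test made of this difference. The match needs a C at the annotated start base itself, so the 47 cannot be read as members without a TOP tract.

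Total counts ranged from 20755886 to 23518045 per library. Syk had 765 and 569 counts in M7 and M8, labelled SYK WT, and more, 4033 and 2944, in M9 and M10, labelled SYK KO, so directions below are those of the libraries as labelled. An exchange of the labels would turn every direction given here, and whether this happened was not tested. Syk had a log2 fold change of 2.80 under TMM scaling, beside medians of 2.82 for 10 macrophage markers and 3.57 for 6 pan-leukocyte genes. Whether Syk followed the makeup of the libraries was not tested either. The polyA libraries also differed in makeup. All 10 macrophage markers and all 6 pan-leukocyte genes were higher in SYK KO, where the macrophage markers summed to 6218 to 10362 CPM (counts scaled to a common library total after TMM) against 915.6 to 1293 CPM in SYK WT. The 8 fibroblast markers summed to between 12536 and 14429 CPM in SYK WT and between 4056 and 4954 CPM in SYK KO, and 5 of them were lower in SYK KO. Neutrophil markers (5 of 6 higher) and T cell markers (4 of 6 higher) summed to at most 39.31 and 9.323 CPM in SYK WT and at least 200.9 and 31.63 CPM in SYK KO. Cd4 made up most of the T cell sum (8.30 and 3.37 CPM in M7 and M8, 49.8 and 25.9 CPM in M9 and M10). Cd3d, Cd3e and Cd3g had at most 4 counts in each SYK WT library, and Cd8a and Trac did not pass the test. Of the 8 endothelial markers 3 were lower in SYK KO (155.2 to 160.6 CPM against 213.3 to 214.9), as were 2 of the 6 skeletal muscle markers, which summed to at most 7.357 CPM in any library. Of the neuroblastoma markers Th and Dbh had no count in any library, Hand2 made up nearly all of the summed level (182 to 301.7 CPM over the 4 libraries), and Gata3 was higher in SYK KO. Mitochondrial genes took 2.20% and 2.34% of the counts in SYK WT and 6.00% and 15.9% in SYK KO. In RNA of such mixed cells a change in the share of cells of a type and a change in RNA per cell cannot be told apart, and the part of these differences in the results below was not tested.

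The members took 4.65% and 3.73% of all counts in the SYK WT libraries (M7, then M8) and 5.95% and 5.35% in the SYK KO libraries (M9, then M10). Both SYK KO libraries were above both SYK WT libraries. The means were 4.19% ± 0.650 (SD, n = 2) in SYK WT and 5.65% ± 0.426 (SD, n = 2) in SYK KO, a difference of 1.45 percentage points (exact two-sided permutation test, p = 0.333, the smallest that 2 libraries against 2 allow). With mitochondrial genes and 4 genes that collect ribosomal RNA reads left out, the shares were 4.86% and 4.11% in SYK WT and 6.56% and 7.09% in SYK KO. The 40S genes made up 39.6%, 39.1%, 40.7% and 40.7% of the members' counts in M7, M8, M9 and M10. The 40S part was thus higher in both SYK KO libraries, by a margin above the spread within either genotype.

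**Figure D1:**
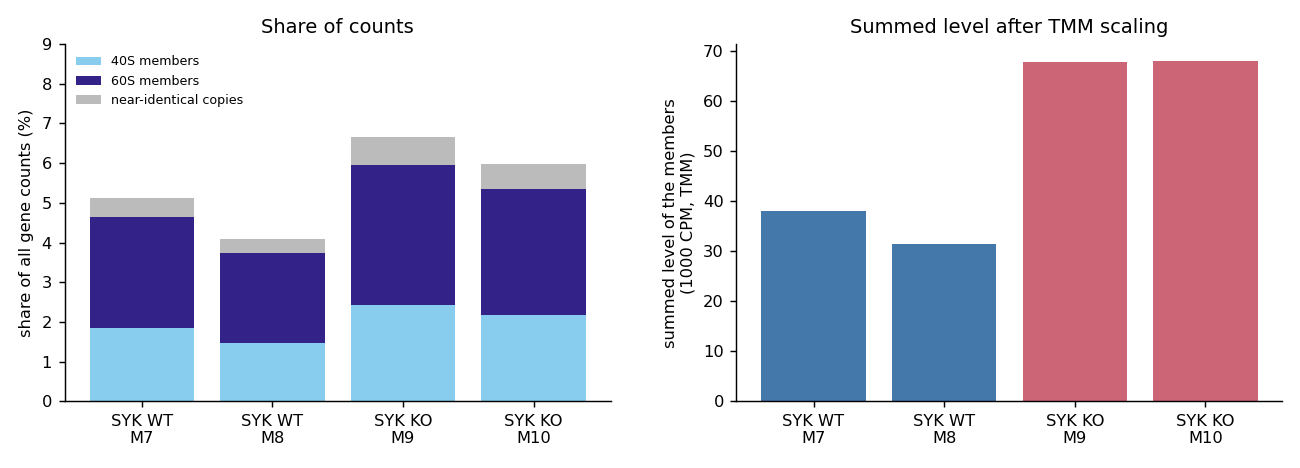
Left, share of all gene counts (%) taken in each library by the 40S members, the 60S members and their near-identical copies; right, summed level of the 83 members after TMM scaling (axis in units of 1000 CPM). The members took 4.65% and 3.73% of the counts in SYK WT and 5.95% and 5.35% in SYK KO, and the summed levels with TMM scaling were higher in both SYK KO libraries, an order that turns if libraries are scaled to macrophage markers.

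After TMM scaling, which sets the median gene near no change, the members summed to 38044 and 31503 CPM in SYK WT and to 67864 and 67970 CPM in SYK KO. The SYK KO mean was 1.95 times the SYK WT mean on this scale, but the members were lower in SYK KO when the libraries were scaled to 10 macrophage markers instead. By edgeR's quasi-likelihood test (Benjamini-Hochberg adjusted p under 0.05 over all 16451 genes tested), 67 of the 80 members tested were higher and 2 were lower in SYK KO under TMM scaling. Over all genes tested, 22.7% were higher and 16.7% lower by the same rule. The median log2 fold change of the tested members was 0.96, and that of all genes was 0.02. Both SYK KO libraries were above both SYK WT libraries for 75 of the 80 members, as for 38% of all genes. M8 was the lowest of the 4 libraries for 74 members. Within SYK WT the median member was 0.27 lower in M8 than in M7 on the log2 scale, and within SYK KO it was 0.03 lower in M10 than in M9. With a library left out, an arm holds 1 library and the other genotype alone gives the spread, so only effect sizes are given here. Fewer members were called higher without M8 or without M7 than with all 4 libraries, and so were fewer of all genes. The members' median log2 fold change was 0.83 without M8 and 1.13 without M7, with 77 of the 80 above 0 in each fit. Without M9 the members' median was 0.88. Of the 80 members, 76 were above 0 without M9, and 76 were above 0 without M10.

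How far the libraries were scaled against each other set the zero of these fold changes. With counts divided by library size only, the median of all genes moved to -0.52 and that of the members to 0.42, with 14 members higher and 3 lower (10.2% and 32.9% of all genes). With scaling to 10 macrophage markers the medians were -2.70 for all genes and -1.74 for the members, with 78 members lower and 0 higher by edgeR (78 also at an unadjusted p under 0.05; 86.3% and 0.827% of all genes). Such a scaling moves all genes by about the same amount, so the gap between the members' median and that of all genes hardly changes with it: it was 0.95 on the log2 scale with TMM, 0.94 with library size and 0.97 with macrophage markers. The log2 fold changes below are with TMM scaling, and every tested member was below 0 with macrophage marker scaling.

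**Figure D2:**
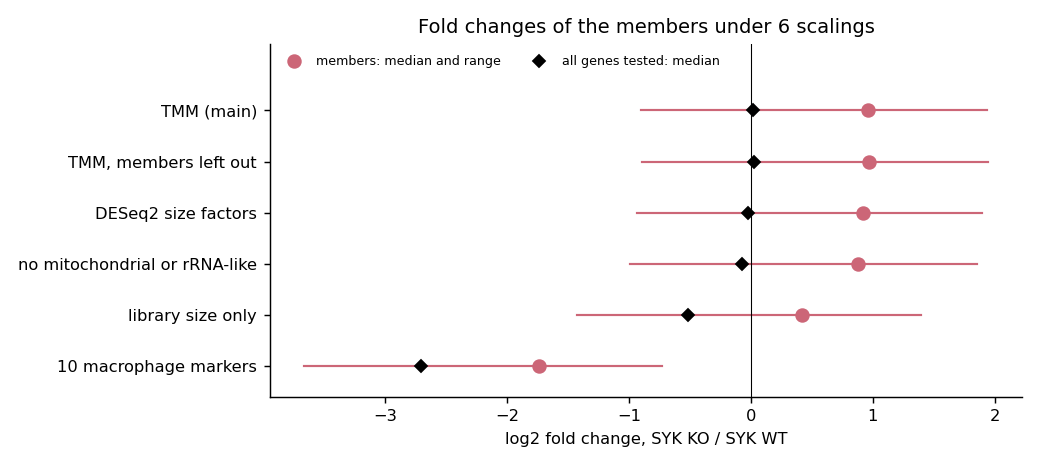
Log2 fold change (SYK KO over SYK WT) of the 80 tested members under 6 scalings, with the median as a circle, the range as a line and the median of all genes tested as a diamond. The members' median lay to the right of the all-gene median under each of these scalings, each of which moves all genes by about the same amount. The members' median was above 0 except with 10 macrophage markers, where it was -1.74.

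Members differed widely in level. Per kilobase of the annotated principal transcript, the tested members ranged from 33.5 to 1978 CPM per kb (mean of 4 libraries), and the 8 highest were Rplp1, Rpl35a, Rplp2, Rpl41, Rps28, Rps2, Rps14 and Rpl13. Rplp1, a stalk protein, had 1345 and 1124 CPM per kb in SYK WT and 2907 and 2537 in SYK KO. Rpl35a, a 60S protein, had 1292 and 1073 CPM per kb in SYK WT and 2447 and 2401 in SYK KO. Rpl41, the smallest ribosomal protein, had 1134 and 957 CPM per kb in SYK WT and 2396 and 2227 in SYK KO. For these 3 genes the genotypes did not overlap. Rps28 of the 40S subunit had 1501 and 1175 CPM per kb in SYK WT and 1997 and 1945 in SYK KO, a log2 fold change of 0.56 ± 0.20 (SE; edgeR, adjusted p = 0.066) that did not pass the test. Rps2 (log2 fold change 1.04), Rps14 (0.96) and Rpl13 (0.96) were each higher in SYK KO. The lowest 3 of the tested members per kilobase were Rpl27, Rpl12 and Rpl5, for which most counts lay on other genes, as described with their copies.

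Among the 67 members called higher, log2 fold changes ran from 0.62 to 1.94, with standard errors of 0.15 to 0.28 over the tested members. The 8 largest that did not overlap between genotypes were Rpl27, Rplp2, Rps23, Rps9, Rps12, Rpl23, Rps27l and Rpl26. Rpl27, a 60S protein, was at 21.1 and 19.3 CPM in SYK WT and at 66.2 and 88.2 CPM in SYK KO (log2 fold change 1.94 ± 0.20, SE, edgeR adjusted p = 0.0014). Rps23, which lines the decoding centre of the 40S subunit, was at 194 and 152 CPM in SYK WT and at 524 and 512 CPM in SYK KO (1.58 ± 0.20). Rps9, a 40S protein that binds ribosomal RNA early in assembly, was at 539 and 437 CPM in SYK WT and at 1332 and 1405 CPM in SYK KO (1.49 ± 0.22). In these 3 genes each SYK KO library exceeded each SYK WT library by more than 2-fold. Rpl23, a 60S protein that can bind Mdm2, was at 400 and 340 CPM in SYK WT and at 1089 and 954 CPM in SYK KO (1.46 ± 0.21). Rpl26, at the exit of the peptide tunnel, was at 272 and 229 CPM in SYK WT and at 671 and 659 CPM in SYK KO (1.41 ± 0.19). For both genes the libraries of a genotype lay closer to each other than to those of the other genotype.

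The ribosomal stalk, which recruits the translation factors that use GTP, is built from Rplp0, Rplp1 and Rplp2. Rplp0 anchors the stalk and was at 1602 and 1307 CPM in SYK WT and at 2584 and 3006 CPM in SYK KO (log2 fold change 0.94 ± 0.25, SE, edgeR adjusted p = 0.027). Rplp1 was at 671 and 561 CPM in SYK WT and at 1451 and 1266 CPM in SYK KO (1.14 ± 0.22). Rplp2, which pairs with Rplp1, was at 383 and 314 CPM in SYK WT and at 899 and 1299 CPM in SYK KO (1.66 ± 0.26). All 3 stalk genes were higher in SYK KO. Rplp2 took 1.01% and 0.998% of the members' counts in SYK WT and 1.32% and 1.91% in SYK KO, so that M10 stood above M9.

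Several members have roles beyond the ribosome. Rps6, the substrate of the S6 kinases, was at 708 and 571 CPM in SYK WT and at 1172 and 1100 CPM in SYK KO (log2 fold change 0.83 ± 0.21). Rpsa, also known as the laminin receptor precursor, was at 1039 and 867 CPM in SYK WT and at 2141 and 2313 CPM in SYK KO (1.22 ± 0.23). Rps27a, which is made as a fusion to ubiquitin, was at 335 and 291 CPM in SYK WT and at 750 and 740 CPM in SYK KO (1.25 ± 0.19). These 3 genes passed the test and did not overlap. Rpl5 and Rpl11 form with 5S ribosomal RNA the particle that binds Mdm2 when assembly fails. Rpl11 was at 476 and 404 CPM in SYK WT and at 1036 and 834 CPM in SYK KO (1.09 ± 0.22). Rpl5 was at 60.5 and 66.5 CPM in SYK WT and at 59.2 and 87.4 CPM in SYK KO (0.21 ± 0.21, edgeR adjusted p = 0.48), and its libraries overlapped. Rps14, a protein of the 40S platform, was at 704 and 581 CPM in SYK WT and at 1151 and 1358 CPM in SYK KO.

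**Figure D3:**
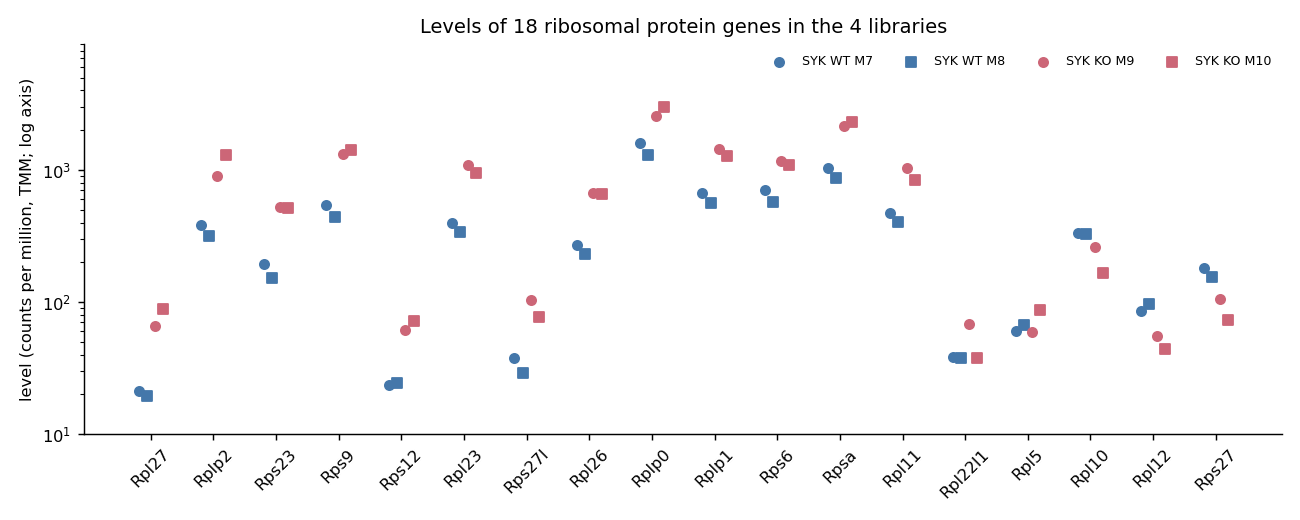
Level in each of the 4 libraries (CPM with TMM scaling, log axis) of 18 ribosomal protein genes, with circles and squares for the libraries of a genotype. Rpl27 to Rpl11 lie higher in both SYK KO libraries on this scale (lower if scaled to macrophage markers), Rpl22l1 and Rpl5 overlap between genotypes, and Rpl10, Rpl12 and Rps27 lie lower in both SYK KO libraries.

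Only Rps27 and Rpl12 were called lower under TMM scaling. Rps27 (chr3:90212522-90213651, GRCm38, minus strand), a zinc-binding 40S protein, was at 182 and 153 CPM in SYK WT and at 106 and 73.5 CPM in SYK KO (log2 fold change -0.90 ± 0.22, SE, edgeR adjusted p = 0.021). Rpl12, at the base of the stalk, was at 85.1 and 96.99 CPM in SYK WT and at 55.5 and 43.8 CPM in SYK KO (-0.88 ± 0.18, adjusted p = 0.012). Rpl10, which joins the 60S subunit late and sits near the site of peptide bond formation, was at 336 and 327 CPM in SYK WT and at 261 and 166 CPM in SYK KO (-0.64 ± 0.24, adjusted p = 0.080). In all 3 both SYK KO libraries were below both SYK WT libraries, and Rpl10 did not pass the test. The 11 members that did not pass were Rpl10, Rpl10a, Rpl13a, Rpl15, Rpl22l1, Rpl31, Rpl38, Rpl39, Rpl5, Rps21 and Rps28, with log2 fold changes from -0.64 to 0.62.

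**Figure D4:**
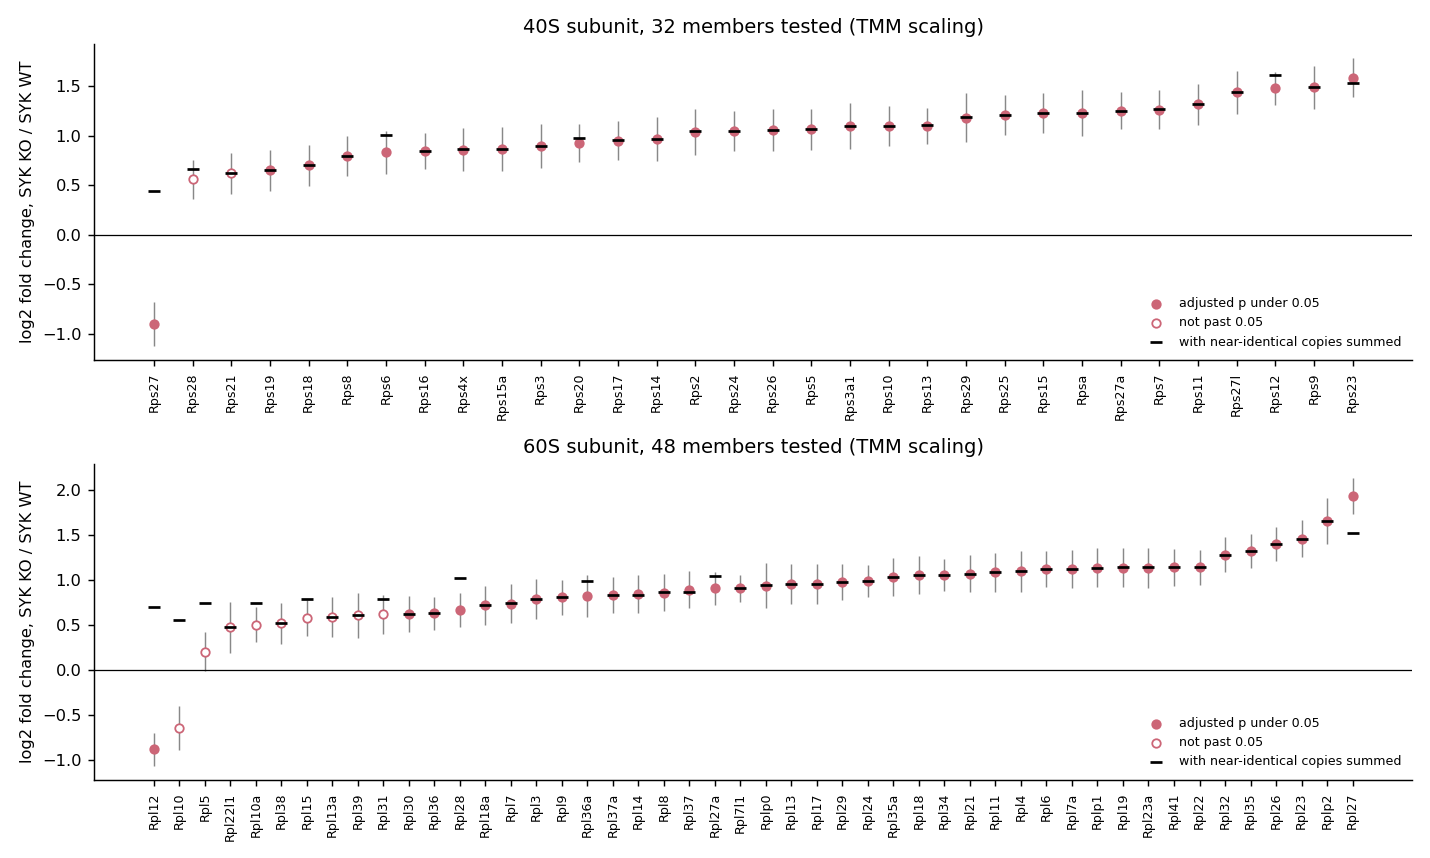
Log2 fold change (SYK KO over SYK WT, TMM scaling) with its standard error for the 32 tested 40S members and 48 tested 60S members; filled circles have an adjusted p under 0.05, and dashes give the value with near-identical copies summed. On this scale 67 members are higher and Rps27 and Rpl12 lower as counted, no dash is below 0, and all members shift below 0 if scaled to macrophage markers.

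By subunit under TMM scaling, 29 of the 32 40S members tested were higher and 1 was lower (median 1.05 on the log2 scale). Of the 48 60S members 38 were higher and 1 was lower (median 0.93). Over all genes tested, 22.7% were higher and 16.7% lower in that fit. To ask which members moved apart from the rest of the ribosome, each library was also scaled to the summed counts of the members. Relative to this family total 4 members were higher (Rpl27, Rplp2, Rps23 and Rps9) and 4 were lower (Rps27, Rpl12, Rpl10 and Rpl5) in SYK KO, against 7.36% higher and 52.7% lower of all genes. The other 72 had log2 fold changes from -0.50 to 0.50, none past the test. Rps27 took 0.478% and 0.487% of the members' counts in SYK WT and 0.156% and 0.108% in SYK KO (-1.87 ± 0.24). Rpl12 took 0.224% and 0.308% in SYK WT and 0.0818% and 0.0644% in SYK KO (-1.86 ± 0.25). Rpl10 took 0.884% and 1.04% in SYK WT and 0.384% and 0.244% in SYK KO (-1.61 ± 0.26). Each of these genes had a smaller part of the family in both SYK KO libraries. Rpl27 took 0.0553% and 0.0612% in SYK WT and 0.0976% and 0.130% in SYK KO (0.97 ± 0.24), and Rps9 took 1.42% and 1.39% in SYK WT and 1.96% and 2.07% in SYK KO (0.52 ± 0.20).

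Other annotated genes whose transcripts hold at least 90% of a member's coding sequence at 97% identity or more were found for 70 members (343 genes, 243 with a count). These copies held 9.26% and 8.91% of the counts of members and copies together in SYK WT and 10.6% and 10.5% in SYK KO, and for 16 members they held more than 10% of the counts. Of the 8 members called relative to the family total, 6 were among these 16, all but Rplp2 and Rps9. The 16 members had log2 fold changes with a standard deviation of 0.82 (-0.90 to 1.94), and the 64 others had one of 0.26 (0.48 to 1.66). For members with an identical copy the counts cannot say which gene was transcribed, since reads from the coding sequence fit both equally.

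The copy of Rps27, named Rps27rt (chr9:114982366-114982739, minus strand), is annotated as protein coding and has the same coding sequence. Rps27 had 4997, 3776, 2187 and 1350 counts in M7, M8, M9 and M10, and Rps27rt had 3854, 2348, 7069 and 4583. The copies held 43.6% and 38.3% of the summed counts in SYK WT and 76.4% and 77.2% in SYK KO. The sum was at 322 and 249 CPM in SYK WT and at 449 and 323 CPM in SYK KO (log2 fold change 0.44 ± 0.24, SE, edgeR adjusted p = 0.18). Summed with its copies Rps27 was thus no longer lower.

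Rpl12 had 2337, 2386, 1144 and 804 counts in M7, M8, M9 and M10, and its identical copy Gm10275 (chr10:29698746-29699380, minus strand) had 9860, 7280, 13631 and 11084. Their sum was higher in SYK KO (0.71 ± 0.19, adjusted p = 0.027). Rpl10 had 9231, 8042, 5373 and 3042 counts, and its copy Rpl10-ps3 (chr9:50344201-50344968, minus strand) had 16714, 10774, 22039 and 18670. The share of counts on copies was 64.4% and 57.3% in SYK WT and 80.4% and 86.0% in SYK KO, and the sum did not pass the test (0.56 ± 0.22, adjusted p = 0.090). For Rpl5 the copies, nearly all Gm15500 (chr7:114705217-114706235, minus strand), held 88.2% to 94.4% of the counts in the 4 libraries. The sum was at 671 and 565 CPM in SYK WT and at 1057 and 1020 CPM in SYK KO (0.75 ± 0.20, adjusted p = 0.029).

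In other genes the copies moved with the member. Rps12, a 40S protein, had 647, 599, 1275 and 1312 counts in M7, M8, M9 and M10, and its copy Rps12-ps3 (chr19:59322290-59322783, plus strand) had 9838, 7398, 20599 and 18845. Copies held 92.5% to 94.2% of the sum in each library. The sum was higher in SYK KO (1.61 ± 0.20, adjusted p = 0.0024), close to the change of Rps12 alone (1.47). Rpl27 had 578, 474, 1366 and 1621 counts, and its copies had 5605, 3920, 10146 and 9395, so that the sum changed less than Rpl27 alone (1.52 against 1.94). For Rps23 the copies held 50.8% to 54.5% of the counts. Rps6-ps4, an identical copy of Rps6, was at 0 counts in both SYK WT libraries and at 1674 and 3734 counts in the SYK KO libraries. Before any scaling, this was at least 558-fold for M9 and 1245-fold for M10 over the 3 counts taken as the floor per library. Rps6 itself changed far less, with 19445, 14047, 24164 and 20215 counts in M7, M8, M9 and M10. As the copy is identical, these counts cannot say whether Rps6-ps4 was transcribed. How reads shared with Rps6 were assigned is not given in the sources used here.

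**Figure D5:**
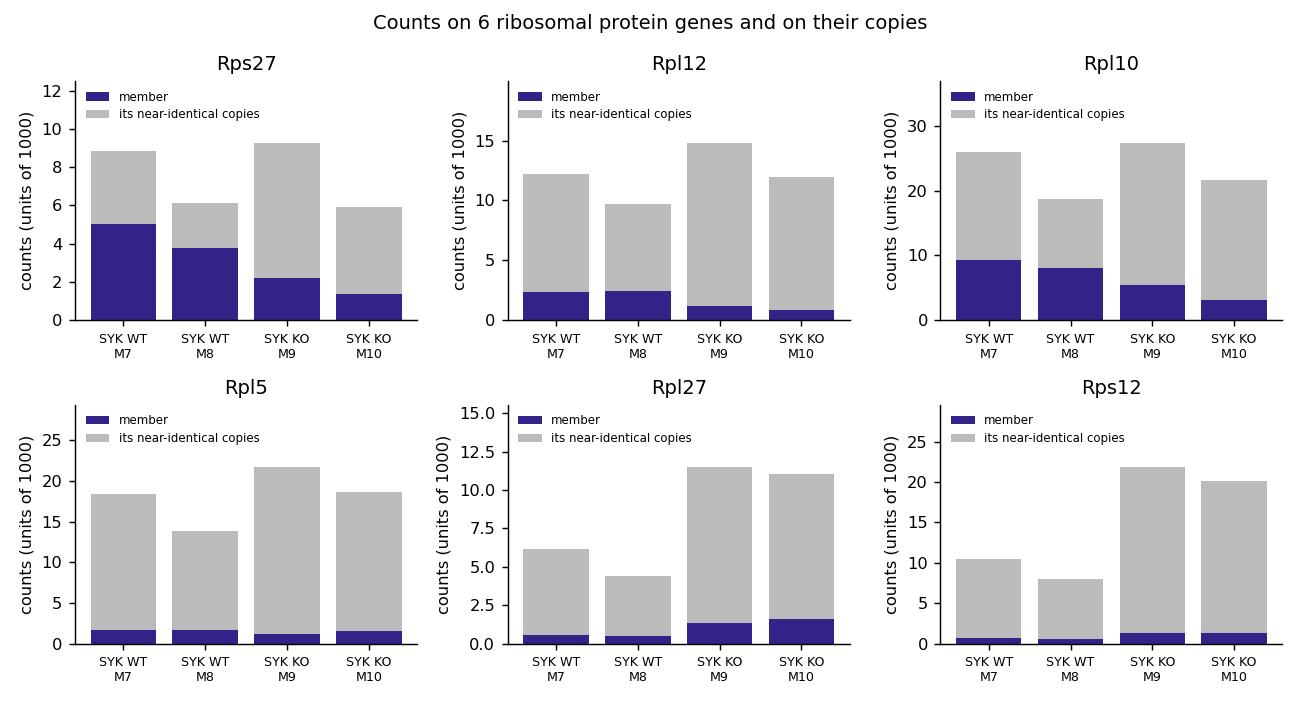
Counts (axis in units of 1000) on 6 ribosomal protein genes and, stacked above, on their near-identical copies in each library. For Rps27, Rpl12 and Rpl10 the members' own counts are lower in SYK KO. Counts on the copies of these genes are higher in both SYK KO libraries than in either SYK WT library. For Rpl27 and Rps12 both parts are higher in SYK KO.

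With every member summed with its copies, 73 of the 80 members tested were higher in SYK KO and 0 were lower by edgeR under TMM scaling (77 had an unadjusted p under 0.05), against 22.7% and 16.7% of all genes, and scaling to macrophage markers was not repeated on these sums. The log2 fold changes then ran from 0.44 to 1.66 with a median of 0.998. Their standard deviation fell from 0.45 to 0.27. Relative to the family total Rplp2, Rps12, Rps23 and Rpl27 were higher and no member was lower (7 had an unadjusted p under 0.05 in either direction), against 7.2% and 53.8% of all genes. The sum over copies was chosen after the data were seen. The 11 tested members without any copy had log2 fold changes from 0.62 to 1.44, and 10 of them were higher.

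Paralogs, which differ in sequence from their parent gene, can be told apart by reads. Rps27l, a paralog of Rps27 that p53 induces, was at 37.7 and 29.2 CPM in SYK WT and at 103 and 77.6 CPM in SYK KO (log2 fold change 1.44 ± 0.21, SE, edgeR adjusted p = 0.0043). It had 20.7 and 19.0 counts per 100 counts of Rps27 in SYK WT and 97.5 and 106 in SYK KO. Against Rps27 and its copies together the ratio was 11.7 in both SYK WT libraries and 23.0 and 24.0 in the SYK KO libraries. The coding sequences of both genes, without the stop codon, are printed because Rps27 and Rps27l moved in opposite directions as counted; they are 252 bases long and capitals mark the 60 positions at which they differ, 53 of them at the third base of a codon. The Rps27 line is also the coding sequence of Rps27rt.
Rps27 (chr3:90212522-90213651, minus strand): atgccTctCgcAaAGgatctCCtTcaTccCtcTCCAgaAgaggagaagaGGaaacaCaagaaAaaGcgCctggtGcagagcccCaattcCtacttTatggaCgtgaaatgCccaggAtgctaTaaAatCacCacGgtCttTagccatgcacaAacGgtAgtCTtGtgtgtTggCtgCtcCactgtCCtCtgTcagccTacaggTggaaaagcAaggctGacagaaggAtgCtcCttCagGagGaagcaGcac
Rps27l (chr9:66946086-66949516, plus strand): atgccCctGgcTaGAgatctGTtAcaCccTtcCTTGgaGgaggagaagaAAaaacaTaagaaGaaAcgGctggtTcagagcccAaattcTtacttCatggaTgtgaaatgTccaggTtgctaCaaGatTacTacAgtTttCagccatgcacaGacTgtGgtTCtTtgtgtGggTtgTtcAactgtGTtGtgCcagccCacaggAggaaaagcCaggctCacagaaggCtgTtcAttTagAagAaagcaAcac

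Rpl22 was at 265 and 213 CPM in SYK WT and at 549 and 507 CPM in SYK KO (1.14 ± 0.19). Its paralog Rpl22l1, 66.9% identical in coding sequence, was at 38.4 and 38.0 CPM in SYK WT and at 68.7 and 37.7 CPM in SYK KO (0.48 ± 0.28, adjusted p = 0.22), so that M9 alone stood apart. Rpl22l1 had 14.5 and 17.8 counts per 100 of Rpl22 in SYK WT and 12.5 and 7.43 in SYK KO. Rpl7l1 was at 86.2 and 86.1 CPM in SYK WT and at 161 and 163 CPM in SYK KO (0.91 ± 0.15), and its parent Rpl7 was higher by 0.74 ± 0.22. Rpl7l1 had 8.36 to 10.4 counts per 100 of Rpl7 in the 4 libraries.

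The paralogs known from muscle and testis were near or at the detection floor. Rpl10l, a testis paralog of Rpl10, had 0 counts in each library, which allows up to 3 counts or 0.109 to 0.163 CPM (counting error only). Rpl39l, a paralog of Rpl39 in male germ cells, had 7, 2, 3 and 2 counts in M7, M8, M9 and M10. Rpl3l, the striated muscle paralog of Rpl3, had 4, 6, 4 and 8. These 3 members did not pass the filter on low counts. Their parents were at high levels: Rpl3 was higher in SYK KO (0.79 ± 0.22), and Rpl39 (0.61 ± 0.25, adjusted p = 0.10) did not pass the test. Rps4x, the X-linked 40S gene, was higher by 0.86 ± 0.22.

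Other genes of the translation machinery were described by lists. Of 19 genes listed for TOP mRNAs, most of them translation factors and with Npm1, Hnrnpa1, Rack1 and Tpt1 among them, 15 were higher under TMM scaling, where 22.7% of all genes were, and the other 4 lay above 0 without passing the test (median log2 fold change 0.78). The largest were Tpt1, the translationally controlled tumor protein, at 994 and 842 CPM in SYK WT and 3089 and 2972 CPM in SYK KO (1.72 ± 0.24), and Naca, a subunit of the nascent polypeptide-associated complex (1.42 ± 0.18). With library size only, 4 of the 19 were higher (10.2% of all genes), and with macrophage markers 18 were lower (86.3% of all genes). Fau and Rpl36al, ribosomal proteins whose symbols the rule does not cover, were both higher under TMM scaling (1.10 and 1.44). The 19 genes ran from 0.31 to 1.72 on that scale, and the members called higher from 0.62 to 1.94.

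Of 50 genes of RNA polymerase I and nucleolar ribosome biogenesis, 13 were higher and 3 lower under TMM scaling (median 0.36), against 22.7% and 16.7% of all genes, so that the share higher was near that of all genes. With library size only 2 were higher and 12 lower (10.2% and 32.9% of all genes), and with macrophage markers all 50 were lower (86.3% of all genes). Ncl, the abundant nucleolar protein nucleolin, was at 430 and 356 CPM in SYK WT and 875 and 1036 CPM in SYK KO (1.28 ± 0.21), and Nop10, of the particles that modify ribosomal RNA, was higher by 1.19 ± 0.19. Taf1a, of the promoter factor of RNA polymerase I (-0.87 ± 0.26), and Gnl3, the nucleolar GTPase nucleostemin (-0.77 ± 0.18), were lower. Of 10 chaperones and assembly partners, 4 were higher under TMM scaling (22.7% of all genes were higher and 16.7% lower), with Nap1l1 (0.93 ± 0.20) and Bccip (0.68 ± 0.15) the largest, and 2 were lower: Nvl, an ATPase of 60S maturation (-1.57 ± 0.26), and the importin Ipo9 (-0.56 ± 0.15). With library size only 2 of the 10 were lower (32.9% of all genes) and no other passed the test. With macrophage markers all 10 were lower (86.3% of all genes).

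Of 24 regulators of ribosomal protein synthesis around mTORC1 and MYC, 9 were higher and 2 lower under TMM scaling (median 0.34), against 22.7% and 16.7% of all genes. Mxd1, which competes with Myc for Max, was at 25.4 and 22.6 CPM in SYK WT and 160 and 97.7 CPM in SYK KO (2.42 ± 0.26). Myc itself was at 9.40 and 8.01 CPM in SYK WT and 27.6 and 22.4 CPM in SYK KO (1.52 ± 0.22). The mTORC1 subunits Rptor (-0.71 ± 0.16) and Mlst8 (-0.66 ± 0.20) were lower. With library size alone as the scale, 2 of these 24 genes were higher and 8 lower (10.2% and 32.9% of all genes), and with macrophage markers 23 were lower (86.3% of all genes).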

How the data were processed

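The members and lists were chosen with earlier results of these data known. The deposited counts are whole numbers per Ensembl gene that the authors made with a bcbio pipeline, in which STAR mapped the reads to mm10 and Salmon estimated their number per gene; the submitters' processing notes name STAR 2.6.1d and Salmon 1.4.0. How the estimates became whole numbers, and how reads shared by a member and an identical copy were assigned, is not given in the sources used here. The paper's methods give single reads on a HiSeq in triplicate, and the labels give paired reads on a NovaSeq and 2 libraries per genotype.

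Identifiers were matched to GENCODE M21 (54495 of 54532). Genes passing filterByExpr (minimum count 10) were tested in edgeR 4.0.16 with TMM factors (1.22, 1.19, 0.877 and 0.787 for M7, M8, M9 and M10), glmQLFit and glmQLFTest, and Benjamini-Hochberg adjustment at 0.05. A second fit took the members' summed counts as library size. The SE is the absolute log2 fold change over the square root of F. Copies were found with BLAST 2.17.0, and 2 that overlap a member were left out of the sums. Levels per kilobase used the shortest principal transcript (APPRIS), which understates genes whose transcript is annotated long. No labels pair the libraries, and counts of members differed between the libraries of a genotype by more than counting noise (chi-square per degree of freedom 13.1 in SYK WT and 120.5 in SYK KO).

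Members named were the 8 highest per length, up to 8 in each direction with an adjusted p under 0.05 and libraries that do not overlap in either fit, the stalk, the paralogs with their parents, 6 members with other roles, and those at the floor of 3 counts; of each list, up to 2 genes in each direction. Members with a TOP tract and the copies were named after their values were seen. The alternatives were DESeq2 1.42.0 size factors and Wald test, library size only, TMM without the members, 10 macrophage markers, no mitochondrial or rRNA-like genes, other filters, edgeR's robust fit, sums with pseudogenes, a family scale by geometric mean, and each library left out. Floors cover counting error only. The SE comes from the quasi-likelihood F, which also takes in the spread between libraries.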

Additional observations from a re-analysis of the deposited data

How the results depend on the processing

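No paired analysis was possible because the genotypes share no replicate number. With each library left out in turn, which leaves an arm of 1 library assumed to vary like the other genotype, the members' median log2 fold change ran from 0.83 (without M8) to 1.13 (without M7), while 9 to 74 members were higher and 0 to 3 lower under TMM scaling (the lowest without M8, then 42 and 1 without M7), and 1 to 5 were higher and 3 to 6 lower relative to the family total, with 1 higher without M7 and 1 without M8. Over all genes tested under TMM scaling, fewer also passed without M8 or without M7, and more passed without M9 or without M10. The numbers of members called in these fits therefore cannot show a change in the members alone, and no conclusion is drawn from them. The share of counts differed by 1.45 percentage points, and by 2.34 with mitochondrial and rRNA-like genes left out. With library size only, 14 members were higher and the median was 0.42. With macrophage marker scaling, 0 were higher, 78 were lower and the median was -1.74. With near-identical copies summed (an alternative added after the data were seen), 0 members were lower, and 0 relative to the family total. Other scalings, filters and tests kept the counts within 1.5 times. For the named members, 445 of 553 alternative values kept direction and call, 13 gained the call, 59 lost it and 36 changed sign. Of the changes of sign, most came from macrophage marker scaling, where log2 fold changes were -1.59 (Rplp1), -1.67 (Rpl35a), -0.99 (Rplp2), -1.57 (Rpl41), -2.14 (Rps28), -1.66 (Rps2), -1.71 (Rps14), -1.74 (Rpl13), -0.73 (Rpl27), -1.12 (Rps23), -1.20 (Rps9), -1.23 (Rps12), -1.26 (Rpl23), -1.30 (Rps27l), -1.30 (Rpl26), -2.47 (Rpl5), -1.73 (Rplp0), -1.57 (Rpl22), -2.34 (Rpl22l1), -1.90 (Rpl3), -2.15 (Rpl39), -1.96 (Rpl7), -1.81 (Rpl7l1), -1.83 (Rps4x), -1.88 (Rps6), -1.47 (Rpsa), -1.46 (Rps27a) and -1.65 (Rpl11). With library size only, Rpl5 was at -0.34 and Rpl22l1 at -0.033. With copies summed, Rps27 was at 0.44, Rpl12 at 0.71 and Rpl10 at 0.56, and with pseudogenes named after the member Rpl10 was at 0.56. With a library left out, Rpl5 ran from -0.087 to 0.37 and Rpl22l1 from -0.11 to 0.86. The cause was not tested.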
